A study of Mus musculus with 6 samples.

Results

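The genes described here encode the heat shock proteins and their cochaperones. They were taken from the deposited expression table by gene name: Hsp70 and Hsp110 genes (Hspa, Hsph), Hsp90 genes, small heat shock protein genes (Hspb), mitochondrial chaperonin genes (Hspd, Hspe), J-protein genes (Dnaj), Bag1 to Bag6, the cytosolic chaperonin TRiC (Tcp1 and the Cct genes), St13, Stip1 and the heat shock factors. The rule found 85 genes of the 14003 in the table. A name does not make a chaperone: Hspb11 encodes a ciliary transport protein, and Hspbap1 a protein that binds a small heat shock protein. Both of the genes that mark the set, Hspa8 and Hspa5, were detected in all 6 libraries.

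Chaperones bind unfolded stretches of other proteins and let them fold, move or be degraded. An Hsp70 holds and releases its client as it splits ATP: a J-protein brings the client and starts ATP hydrolysis, and a nucleotide exchange factor of the Hsp110 or BAG families ends the cycle. Hsp90 takes partly folded clients such as kinases and steroid receptors from Hsp70, and chaperonins enclose a client in a barrel. The cytosol, the endoplasmic reticulum (ER) and the mitochondrion each have their own Hsp70. Heat shock factor 1 (Hsf1) induces the cytosolic set under protein stress, while the ER set answers to the unfolded protein response. In osteoblasts the ER set serves the folding of secreted collagen.

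RNA was sequenced from MC3T3-E1 cells, a preosteoblast line from mouse calvaria whose genotype the labels give as WT. The control group held 3 untreated samples and the other group 3 samples exposed to 200 µM sulfasalazine, an anti-inflammatory drug, for 24 h. The labels name no vehicle, give the same batch for all 6 samples and do not tell separate cultures from repeat libraries. The p-values therefore speak to the scatter among these 6 libraries, some or all of which can be technical. In such bulk RNA, fewer cells of a type and less RNA per cell cannot be told apart.

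The libraries held 15980940 to 21579133 reads on genes, as recovered from the deposited FPKM (fragments per kilobase of gene, scaled to library size), and control replicate 3 had the fewest. That library lay outside the range of control replicates 1 and 2 for 66 of the 77 tested chaperone genes (85.7%, against 83.3% of all tested genes), and for 46 of them it lay on the side of the sulfasalazine libraries (59.7%, against 60.2%). Of 12 osteoblast markers, 8 were in the table. Their summed level was 1549 to 2142 FPKM in control cells and 889 to 1110 FPKM with sulfasalazine, nearly all of it from Spp1. Col1a1 and Sp7, which define the lineage, had at most 0.655 and 0.0724 FPKM in any library. The 4 epithelial markers in the table summed to 1293 to 1452 FPKM in control cells and 1884 to 2093 FPKM with sulfasalazine, but they did not move together. Krt8 and Krt18 were called higher (log2 changes 1.65 and 0.37), Krt19 lower (-1.21), and Cdh1 was not called. The 2 macrophage markers summed to 31.7 to 56.2 FPKM and 16.3 to 27.7 FPKM in the same order, from Cd68 with Csf1r at no more than 0.0918 FPKM, and the markers of endothelium, fat and muscle to at most 10.1 FPKM in a library. Whether these marker levels match the labelled line was not tested, nor was the part of cell identity in the chaperone changes.

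A gene had to reach 1 FPKM in 3 or more of the 6 libraries to be tested, with limma on log2(FPKM + 1), and a gene is called higher or lower with sulfasalazine where the Benjamini-Hochberg adjusted p over all 10338 tested genes was under 0.05. Of the 85 chaperone genes, 77 were tested, and 25 were higher and 24 lower. The called share of 63.6% stood beside 66.5% of all genes tested. By direction it was 32.5% higher and 31.2% lower, against 37.2% and 29.3%. Changes are given on the log2 scale, as sulfasalazine over control (log2 change). Their median over the tested chaperone genes was 0.03, against 0.08 for all genes. The 2 groups did not overlap for 53 of the 77 (68.8%, against 71.4% of all genes). For genes named below, a lack of overlap comes from the same values as the call and adds no support to it. The median absolute log2 change was 0.605, against 0.684 for all genes. The set was thus near the background in its share of calls, its direction and the size of its changes. The changes described below are those of single genes and of how families divided. The tally moved to 28 higher and 26 lower when control replicate 3 was left out.

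Within several families some genes were called higher and others lower, as the plot of changes by class shows. Over all genes tested, 37.2% were higher and 29.3% lower, so calls both ways were common in the table at large. In the same order the shares were 37.5% and 37.5% for TRiC, 29.7% and 32.4% for J-protein genes. They were 50% and 25% for Hsp70 and 50% and 33.3% for BAG genes. Cytosolic or nuclear genes had 34% and 27.7%, ER genes 38.5% and 15.4%, and mitochondrial genes 22.2% and 55.6%. The higher shares of Hsp70 and of cytosolic or nuclear genes include Hspa12a and Hspa2, and those of J-protein and mitochondrial genes Dnajc28. These 3 genes passed the filter through the sulfasalazine libraries alone, so a call of lower was not open to them. Of 8 tested Hsp70 genes 4 were higher and 2 lower, of 3 Hsp110 genes 1 was higher and 1 lower, and of 3 Hsp90 genes likewise 1 and 1. TRiC had 3 subunits higher and 3 lower of 8. BAG genes had 3 higher and 2 lower of 6, and J-protein genes 11 higher and 12 lower of 37. By site, 16 of the 47 cytosolic or nuclear genes were higher and 13 lower (median log2 change 0.10). Of 13 ER genes 5 were higher and 2 lower (median 0.22); 4 were lower without control replicate 3 and 5 without replicate 3 of both groups. Of 9 mitochondrial genes 2 were higher and 5 lower (median -0.33). Whether the sites differ from one another was not tested. The summed level of the cytosolic and nuclear genes was 7187, 7822 and 7410 FPKM in control replicates 1 to 3 and 13730, 14371 and 14461 FPKM with sulfasalazine. The mitochondrial sum was 2066, 2038 and 1537 FPKM in control cells and 742, 763 and 797 FPKM with sulfasalazine. The ER sum was 2120, 2111 and 1339 FPKM in control cells and 894, 856 and 1126 FPKM with sulfasalazine. The cytosolic sum was higher and both organelle sums lower in every sulfasalazine library than in any control, and a few abundant genes carried each sum.

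**Figure D1:**
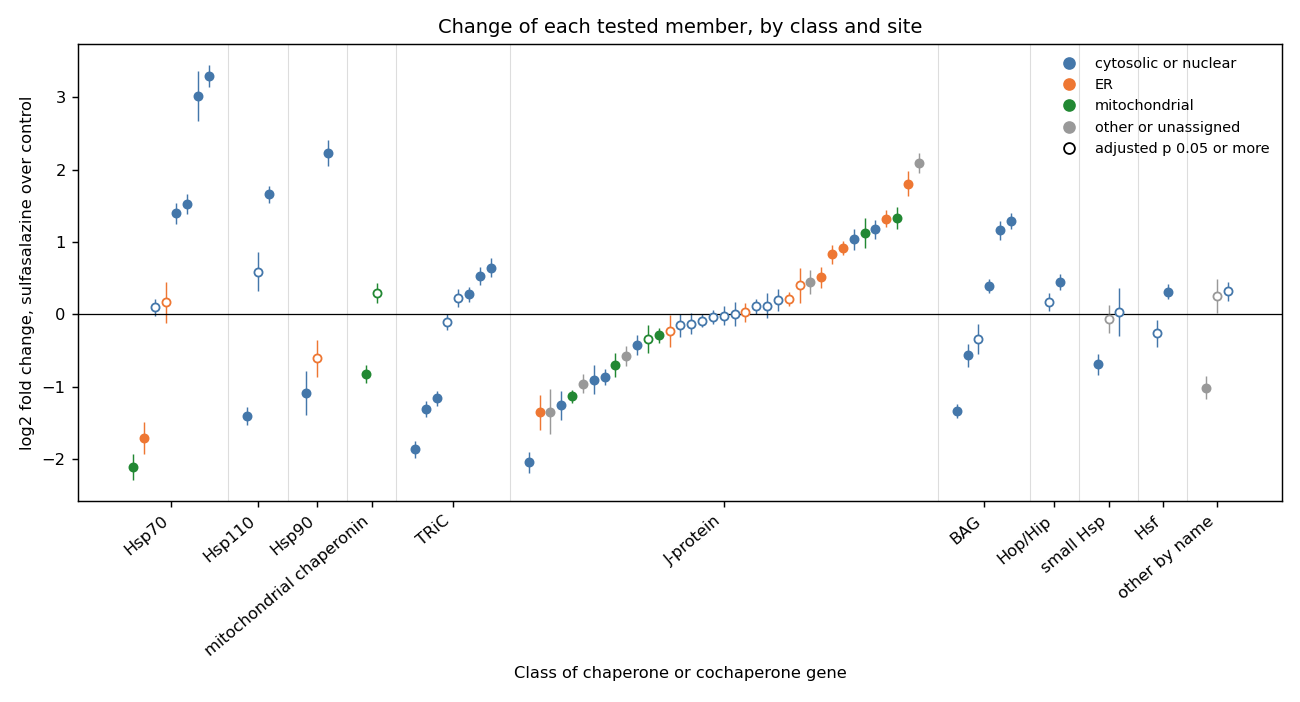
Log2 fold change (sulfasalazine over control, from log2(FPKM + 1)) of each of the 77 tested genes, ordered within its class and coloured by cell site, with bars of 1 standard error and open points where the limma adjusted p was 0.05 or more. The Hsp70 class runs from -2.10 to 3.29, and TRiC, J-protein and BAG genes also lie on both sides of 0.

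Among the Hsp70 genes, the main cytosolic form rose while the ER and mitochondrial forms fell. Hspa8 (chromosome 9, 40800984 to 40810087) encodes Hsc70, the constitutive cytosolic Hsp70 that also uncoats clathrin vesicles. Its level was 199, 255 and 284 FPKM in control replicates 1 to 3 and 2318, 2329 and 2536 FPKM in the sulfasalazine libraries. The groups were far apart, and the means differed 9.74-fold (log2 change 3.29, SE 0.15, limma adjusted p = 4.13e-06). Some of these reads may belong elsewhere, since 39.4% of the 50-base words of its transcripts occur in 16 other genes.

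Hspa1b (chromosome 17, 34956436 to 34959238), the stress-inducible Hsp70, stood at 11.1, 6.95 and 22.8 FPKM in control cells and at 103, 108 and 105 FPKM with sulfasalazine. Every treated library exceeded every control, and the highest control was replicate 3 (log2 change 3.01, SE 0.34, limma adjusted p = 0.000126). Hspa1b shares 62.3% of its 50-base words with other genes, above all with its near-identical neighbour Hspa1a, so the split of reads between the pair is uncertain. Hspa1a was below the filter, at 0, 0.0791 and 0.0617 FPKM in control cells and 0.792, 0.528 and 0.615 FPKM with sulfasalazine. Those levels rest on 0, 5 and 3 reads against 52, 32 and 36. Without the filter Hspa1a was called higher too. As a share of Hspa8, Hspa1b was similar in both groups, at 0.0555, 0.0273 and 0.0804 in control cells and 0.0442, 0.0465 and 0.0416 with sulfasalazine.

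Hspa5 (chromosome 2, 34771970 to 34777547) encodes BiP, the Hsp70 of the ER and a sensor partner of the unfolded protein response. It fell from 1529, 1501 and 920 FPKM to 355, 357 and 482 FPKM. Replicate 3 of each group lay nearest to the other group, and the groups did not overlap (log2 change -1.70, SE 0.22, limma adjusted p = 0.000281; -2.09 without replicate 3 of both groups). Hspa9, encoding the mitochondrial Hsp70 mortalin that pulls proteins through the inner membrane, fell from 1427, 1296 and 894 FPKM to 253, 279 and 295 FPKM. All sulfasalazine values were below the lowest control, replicate 3 (log2 change -2.10, SE 0.18, limma adjusted p = 3.62e-05).

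The Hsp70 family therefore changed in make-up while its total overlapped between groups. Summed over the 11 genes, it was 3206, 3100 and 2158 FPKM in control cells and 3071, 3118 and 3471 FPKM with sulfasalazine. Hspa8 made up 6.21%, 8.21% and 13.1% of that sum in control cells and 75.5%, 74.7% and 73.1% with sulfasalazine. Hspa5 went from 47.7%, 48.4% and 42.6% to 11.6%, 11.4% and 13.9%. Hspa9 went from 44.5%, 41.8% and 41.4% to 8.24%, 8.94% and 8.48%. The plot of Hsp70 make-up shows this change, in which the controls were led by both organelle forms and the sulfasalazine libraries by the cytosolic form. The ratio of Hspa8 to Hspa5 was 0.13, 0.17 and 0.308 in control cells and 6.53, 6.53 and 5.27 with sulfasalazine.

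**Figure D2:**
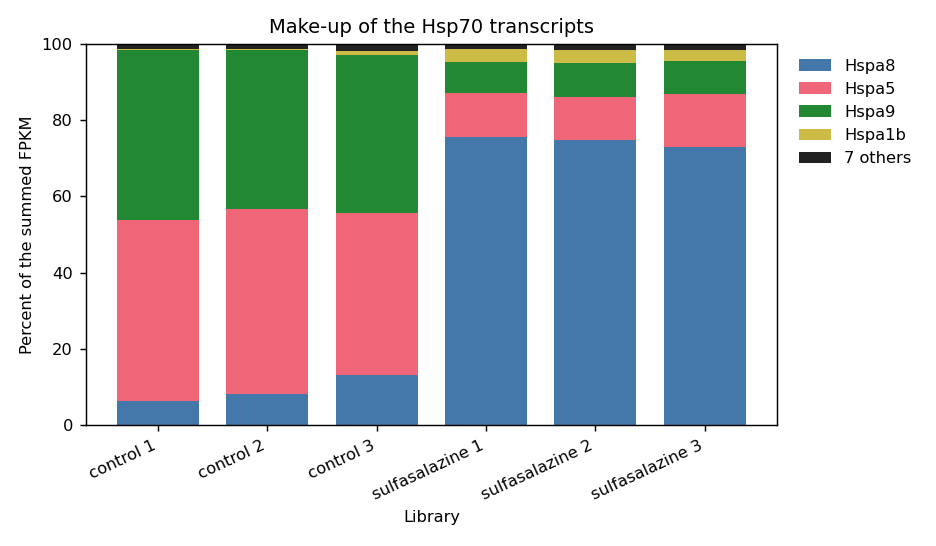
Share of the summed FPKM of the 11 Hsp70 genes taken by Hspa8, Hspa5, Hspa9, Hspa1b and the 7 others, in percent, for each of the 6 libraries. Hspa8 takes 6.21% to 13.1% in control cells and 73.1% to 75.5% in the sulfasalazine libraries.

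The other Hsp70 genes were low. Hspa12a, a distant relative of the family, was listed at 0, 0.0348 and 0.136 FPKM in control cells and 1.71, 2.22 and 2.22 FPKM with sulfasalazine. Hspa2, best known from the testis, was at 0.237, 0.242 and 0.218 FPKM in control cells and 2.33, 1.78 and 2.69 FPKM with sulfasalazine. Both were called higher (log2 changes 1.53, SE 0.14, and 1.40, SE 0.15). The pseudocount of 1 compresses changes at such levels: with a pseudocount of 0.1 they were 3.86 and 2.82, and with voom on recovered reads 5.30 and 3.21. Both passed the filter through the sulfasalazine libraries alone, as did the J-protein gene Dnajc28. Without these 3 genes the tally was 22 higher and 24 lower of 74. Hspa14, a ribosome-associated Hsp70, held at 31.6 to 33.9 FPKM in control cells and 32.4 to 38.8 FPKM with sulfasalazine (limma adjusted p = 0.466). Hspa13, an Hsp70 of the ER and microsomes, lay at 7.28, 7.10 and 3.64 FPKM in control cells and 5.51, 5.41 and 9.57 FPKM with sulfasalazine. Its groups overlapped (log2 change 0.17, limma adjusted p = 0.625), and replicate 3 of each group lay apart from the other 2 of its group: without both, the log2 change was -0.34 (limma adjusted p = 0.0386). Hspa1l and Hspa12b were listed at no more than 0.146 and 0.0672 FPKM in any library.

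The exchange factors also split. Hsph1 (chromosome 5, 149614287 to 149636376), which encodes the inducible Hsp110, had 52.1, 41.7 and 43.5 FPKM in control cells and 132, 155 and 151 FPKM with sulfasalazine. Hspa4, which encodes the related Apg-2, had 223, 220 and 173 FPKM in control cells and 79.2, 75.7 and 74.6 FPKM with sulfasalazine. Neither gene had overlapping groups, and the log2 changes were 1.66 (SE 0.12, limma adjusted p = 1.84e-05) and -1.40 (SE 0.12, limma adjusted p = 3.70e-05). The order of the pair was thus reversed: the ratio of Hsph1 to Hspa4 was 0.233, 0.190 and 0.251 in control cells and 1.67, 2.05 and 2.02 with sulfasalazine. Hspa4l, the Hsp110 gene with the lowest level, did not pass the test (11.9, 12.1 and 6.87 FPKM against 13.8, 12.4 and 21.8 FPKM, limma adjusted p = 0.0855).

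BAG proteins carry the domain that releases nucleotide from Hsp70. Bag3, which links Hsp70 to small heat shock proteins and selective autophagy, had 28.8, 29.8 and 32.1 FPKM in control cells and 71.5, 71.8 and 83.1 FPKM with sulfasalazine (log2 change 1.29, SE 0.11, limma adjusted p = 3.51e-05). Bag2, an inhibitor of the ubiquitin ligase that works with Hsp70, had 16.1, 19.7 and 20.3 FPKM against 45.5, 42.3 and 41.0 FPKM (log2 change 1.16, SE 0.13). Bag5, which has several BAG domains, had 83.1, 86.5 and 78.3 FPKM against 31.5, 32.4 and 32.8 FPKM (log2 change -1.33, SE 0.10, limma adjusted p = 1.84e-05). The groups were clearly apart for these 3 genes, with Bag3 and Bag2 high and Bag5 low in the sulfasalazine libraries. Bag6, which triages misplaced membrane proteins, was higher by a log2 change of 0.39 (SE 0.10), a call that median-of-ratios scaling ended (limma adjusted p = 0.0834). Bag4, the silencer of death domains, was lower by a log2 change of -0.56 (SE 0.16, limma adjusted p = 0.0156), with adjusted p-values from 0.0503 to 0.0617 when any of control replicates 1 and 2 and sulfasalazine replicates 1 and 2 was left out. Bag1, with 110, 133 and 201 FPKM in control cells and 121, 116 and 102 FPKM with sulfasalazine, had overlapping groups and did not pass (limma adjusted p = 0.175). Without control replicate 1 it passed as lower (limma adjusted p = 0.0430).

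The 2 cytosolic Hsp90 genes went opposite ways. Hsp90ab1 (chromosome 17, 45567775 to 45573271), the constitutive beta form, had 1236, 1501 and 1663 FPKM in control cells and 6571, 7078 and 6819 FPKM with sulfasalazine. It was the most abundant of the 85 genes in every sulfasalazine library, and the groups lay far apart (log2 change 2.23, SE 0.18, limma adjusted p = 2.45e-05). Hsp90aa1 (chromosome 12, 110690605 to 110702728), the inducible alpha form, had 1042, 1086 and 481 FPKM in control cells and 357, 344 and 469 FPKM with sulfasalazine. Control replicate 3 lay just above the highest sulfasalazine library, well below the other controls. The call of lower (log2 change -1.08, SE 0.30, limma adjusted p = 0.0136) was lost without control replicate 1 (0.0504) or control replicate 2 (0.0577). Hsp90aa1 also shares 47.5% of its 50-base words with other genes. The ratio of the beta to the alpha form was 1.19, 1.38 and 3.46 in control cells and 18.4, 20.6 and 14.5 with sulfasalazine. The sum of the 3 Hsp90 genes was 2558, 2898 and 2313 FPKM in control cells and 7084, 7549 and 7498 FPKM with sulfasalazine, so every sulfasalazine sum exceeded every control sum, which was not so for Hsp70.

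**Figure D3:**
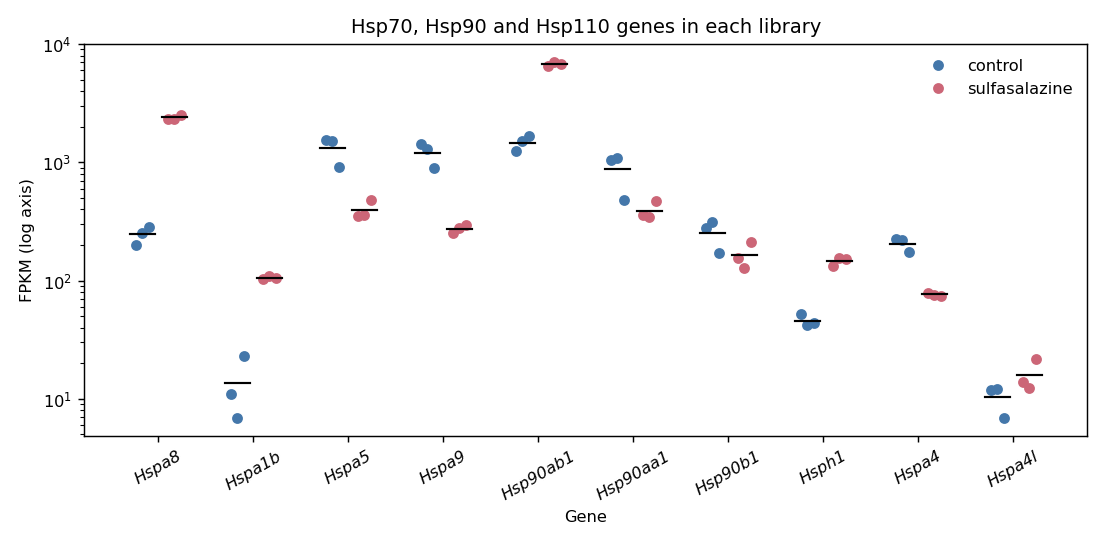
FPKM (log axis) of 10 Hsp70, Hsp90 and Hsp110 genes in each of the 3 control and 3 sulfasalazine libraries (points, replicates 1 to 3 from left to right) with the group mean (bar). Hspa8, Hspa1b, Hsp90ab1 and Hsph1 stand higher with sulfasalazine, Hspa5, Hspa9 and Hspa4 lower, and control replicate 3 lies apart from the other controls for Hsp90aa1 (481 against 1042 and 1086 FPKM).

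Stip1, encoding the adaptor Hop that joins Hsp70 to Hsp90, had 199, 220 and 244 FPKM in control cells and 300, 294 and 308 FPKM with sulfasalazine. It was higher by a small margin with no overlap (log2 change 0.45, SE 0.11, limma adjusted p = 0.00719). St13, encoding Hip, which holds Hsp70 in its client-bound state, overlapped between groups, at 195 to 225 FPKM in control cells and 206 to 252 FPKM with sulfasalazine (limma adjusted p = 0.227).

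Beyond the 85 genes, a list of 20 Hsp90 cochaperones and related genes had 10 higher and 4 lower of 19 tested (52.6% and 21.1%, against 37.2% and 29.3% of all genes), with a median log2 change of 0.46 against 0.08 for all genes. This list and the 4 others below were chosen with earlier results of these data known, so their shares describe the listed genes and test nothing. Cdc37, which loads kinases onto Hsp90, had 32.9, 38.6 and 38.7 FPKM in control cells and 162, 180 and 141 FPKM with sulfasalazine (log2 change 2.10, SE 0.13). Fkbp4, an immunophilin of steroid receptor complexes, had 103, 119 and 197 FPKM against 429, 442 and 441 FPKM (log2 change 1.70, SE 0.22). Ahsa1, the activator of the Hsp90 ATPase, had 34.4, 39.0 and 36.7 FPKM against 100.2, 109 and 115 FPKM (log2 change 1.53, SE 0.11). All 3 were separated between groups, as was Fkbp5, another immunophilin (log2 change 1.35, SE 0.21), and as were 71.4% of all tested genes. The 4 that fell were Ppid, Ptges3 (encoding p23), Chordc1 and Sgta, by 0.79, 0.75, 0.73 and 0.43 on the log2 scale. These genes appear with 4 other lists in the plot of folding genes outside the heat shock families.

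J-proteins, the partners that give Hsp70 its sites and clients, had 23 of 37 tested genes called, 11 higher and 12 lower. By structural type, DNAJA had 1 higher and 1 lower of 4, DNAJB 3 and 2 of 9, and DNAJC 7 and 9 of 24. By site, the ER J-proteins had 5 higher and 1 lower of 10, and the cytosolic and nuclear ones 2 higher and 5 lower of 16. The shares were 50% and 10% in the ER and 12.5% and 31.2% in the cytosol and nucleus, against 37.2% and 29.3% of all genes. The difference between these sites was not tested. Dnaja1, a general partner of Hspa8, had 32.5, 34.7 and 29.5 FPKM in control cells and 73.6, 63.9 and 85.3 FPKM with sulfasalazine (log2 change 1.17, SE 0.13, limma adjusted p = 0.000134). Dnaja1 shares 20.55% of its 50-base words with other genes. Dnajb1, the classical inducible Hsp40, named here after its values were seen, had 15.1, 17.2 and 19.0 FPKM against 33.7, 34.0 and 40.8 FPKM (log2 change 1.04, SE 0.14). These were the 2 cytosolic J-protein genes called higher, and neither had overlapping groups.

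The J-protein genes that fell had varied duties. Dnajc21, which takes part in the maturation of the large ribosomal subunit, had 34.5, 39.0 and 33.2 FPKM in control cells and 7.92, 6.77 and 9.05 FPKM with sulfasalazine (log2 change -2.04, SE 0.15, limma adjusted p = 1.74e-05). Dnajc9, a histone cochaperone, had 70.5, 57.9 and 91.4 FPKM against 27.7, 25.2 and 37.4 FPKM (log2 change -1.25, SE 0.20). Dnajc5, the cysteine string protein of secretory vesicles, had 156, 126 and 116 FPKM against 65.4, 66.1 and 71.1 FPKM (log2 change -0.95, SE 0.13). For these 3 genes, every sulfasalazine library lay below every control. Dnajc13, an endosomal J-protein, was spread widely in the controls, at 106, 83.7 and 40.4 FPKM, with replicate 3 nearest to the sulfasalazine values of 29.2, 24.2 and 29.2 FPKM (log2 change -1.34, SE 0.31, limma adjusted p = 0.00551). The other cytosolic J-protein genes called lower, named after their values were seen, were Dnajc2, which sits on the ribosome, Dnajc7, which binds both Hsp70 and Hsp90, and Dnajb5, with log2 changes of -0.90, -0.86 and -0.42. The call of Dnajb5 (limma adjusted p = 0.0289) was lost without control replicate 2, sulfasalazine replicate 1 or sulfasalazine replicate 2. Dnajc7 had 93.2, 86.6 and 77.2 FPKM in control cells and 45.4, 46.3 and 47.8 FPKM with sulfasalazine, and so did not overlap.

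Among those that rose, Dnajc22 had 8.42, 7.04 and 9.41 FPKM in control cells and 38.9, 36.6 and 39.4 FPKM with sulfasalazine (log2 change 2.09, SE 0.14, limma adjusted p = 1.30e-05), a clear separation. Dnajc8, a nuclear J-protein of the splicing machinery, and Dnajb2, a ubiquitin-binding J-protein, were among the most abundant J-protein genes and had overlapping groups (limma adjusted p = 0.435 and 0.252). Dnajc12 and Dnajb13 were below the filter. Dnajc12, which assists aromatic amino acid hydroxylases, was listed at 0.0239, 0 and 0 FPKM in control cells and at 0.866, 0.422 and 0.826 FPKM with sulfasalazine, and it was called higher without the filter. Dnajb13 was listed at up to 0.0369 FPKM.

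TRiC, the ring-shaped chaperonin that folds actin and tubulin, is built from equal numbers of 8 kinds of subunit, yet the 8 subunit genes did not change together. Cct8 fell most, from 408, 401 and 353 FPKM to 98.1, 99.8 and 120 FPKM (log2 change -1.86, SE 0.12, limma adjusted p = 1.08e-05). Cct4 fell from 446, 484 and 428 FPKM to 169, 194 and 185 FPKM (log2 change -1.31, SE 0.11), and Cct6a from 623, 670 and 637 FPKM to 272, 294 and 301 FPKM (log2 change -1.15, SE 0.10). Cct6a overlaps Psph on the opposite strand over 15.3% of its exonic bases. The sulfasalazine libraries lay below all controls for these 3. Cct2 rose from 286, 359 and 382 FPKM to 532, 539 and 527 FPKM (log2 change 0.65, SE 0.13, limma adjusted p = 0.00281), and Cct5 from 235, 293 and 239 FPKM to 336, 373 and 396 FPKM (log2 change 0.53, SE 0.13, limma adjusted p = 0.00630). Their groups were apart as well.

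Tcp1, the first subunit, was called higher (log2 change 0.28, SE 0.11, limma adjusted p = 0.0454), but the call was lost in most alternatives, among them every one that left out 1 library apart from control replicate 3, with adjusted p-values from 0.0740 to 0.303. Its log2 change was 0.15 under median-of-ratios scaling and 0.45 under quantile normalization. Tcp1 overlaps Acat3 on the opposite strand over 16.9% of its exonic bases. The other 2 subunit genes, Cct3 and Cct7, were not called (limma adjusted p = 0.418 and 0.122). The subunit sum was 2533, 2819 and 2694 FPKM in control cells and 2071, 2181 and 2186 FPKM with sulfasalazine. Within it, the ratio of the most to the least abundant subunit went from 3.88, 3.81 and 3.37 to 5.42, 5.4 and 4.38. Cct6a led in every control and Cct2 in every sulfasalazine library, and the ratio of Cct2 to Cct8 went from 0.702, 0.895 and 1.08 to 5.42, 5.4 and 4.38, as the plot of subunit shares shows. Cct6b, the testis form, was listed at up to 0.268 FPKM.

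**Figure D4:**
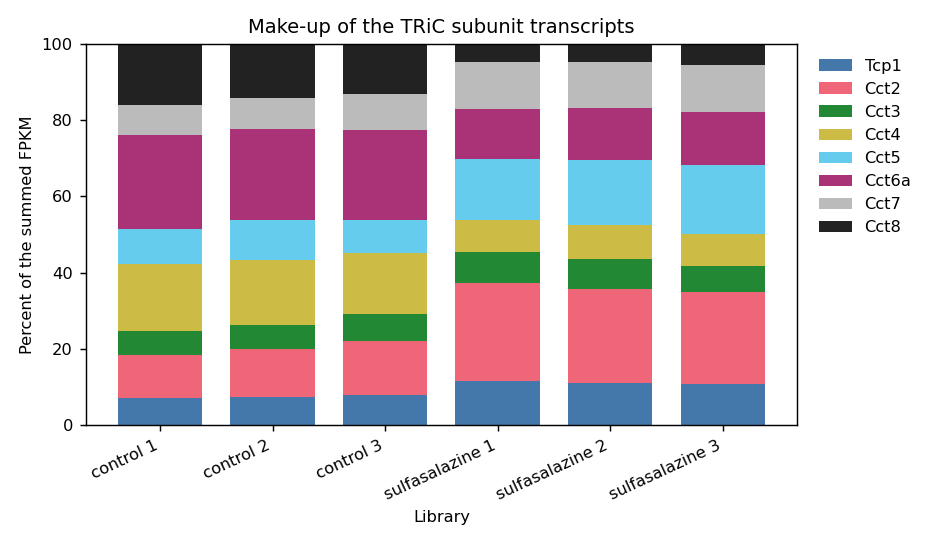
Share of the summed FPKM of the 8 tested TRiC subunit genes, in percent, for each of the 6 libraries. Cct2 takes 11.3% to 14.2% in control cells and 24.1% to 25.7% with sulfasalazine, while Cct8 takes 13.1% to 16.1% and 4.57% to 5.50%.

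Genes of prefoldin, the complex that hands new actin and tubulin chains to TRiC, and of related proteins also split. Of 8 genes on the list, all tested, 37.5% were called in each direction, against 37.2% and 29.3% of all genes. The 3 higher were Pfdn6, Pfdn5 and Pdrg1, a related gene and not a subunit of the complex, with log2 changes of 1.31, 1.12 and 0.87. The 3 lower were Vbp1, Pfdn1 and Pfdn4, with -1.43, -1.20 and -1.16. Pfdn5 had 154, 144 and 164 FPKM in control cells and 355, 366 and 292 FPKM with sulfasalazine, and Pfdn1 had 143, 173 and 170 FPKM against 72.0, 71.6 and 65.9 FPKM. Neither overlapped between groups.

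In the mitochondrion, both partners of the Hsp60 chaperonin were measured. Hspd1 encodes Hsp60, the barrel, and Hspe1 encodes Hsp10, its lid. Hspd1 had 277, 328 and 256 FPKM in control cells and 158, 151 and 174 FPKM with sulfasalazine. Hspe1 had 123, 169 and 126 FPKM in control cells and 163, 168 and 175 FPKM with sulfasalazine. Hspd1 was lower with no overlap (log2 change -0.82, SE 0.12, limma adjusted p = 0.000556). Hspe1 did not pass (log2 change 0.29, SE 0.14, limma adjusted p = 0.0919). Without control replicate 2 it was called higher (limma adjusted p = 0.0112). Both genes share sequence with others, over 42.1% and 22.8% of their 50-base words. The ratio of Hspd1 to Hspe1 was 2.26, 1.94 and 2.04 in control cells and 0.966, 0.903 and 0.993 with sulfasalazine, with every sulfasalazine ratio below every control ratio.

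These genes lie head to head on chromosome 1, with Hspd1 at 55077835 to 55088243 on the reverse strand and Hspe1 at 55088132 to 55091307 on the forward strand. The 215 bases between their RefSeq starts (GRCm38.p6, chr1:55087933-55088147) are shown because both genes are read from them, in opposite directions, while their levels changed unequally. The sequence is on the Hspe1 strand and the capitals mark 2 overlapping matches to a heat shock element of 3 units, in which GAA and TTC alternate with 2 bases between neighbours, the kind of repeat bound by Hsf1.
Hspe1 and Hspd1: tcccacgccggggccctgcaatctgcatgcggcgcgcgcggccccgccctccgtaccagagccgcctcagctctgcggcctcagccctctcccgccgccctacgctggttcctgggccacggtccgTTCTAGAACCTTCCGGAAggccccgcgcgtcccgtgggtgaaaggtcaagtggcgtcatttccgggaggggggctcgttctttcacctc

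Mitochondrial J-proteins had 3 genes lower and 2 higher of 6 (50% and 33.3%, against 29.3% and 37.2% of all genes). The 2 include Dnajc28, which passed the filter through the sulfasalazine libraries alone. Dnaja3, encoding Tid1, the main matrix partner of Hspa9, had 151, 155 and 157 FPKM in control cells and 71.5, 72.6 and 66 FPKM with sulfasalazine. It fell together with Hspa9, with no overlap between groups (log2 change -1.13, SE 0.09, limma adjusted p = 2.96e-05). The other mitochondrial J-protein genes called lower, named after their values were seen, were Dnajc15 and Dnajc11, with log2 changes of -0.70 and -0.29. The call of Dnajc11 (limma adjusted p = 0.0384) was lost without the intensity trend of the test and when any library apart from control replicate 3 was omitted. Dnajc30, linked to respiratory complexes, had 9.38, 9.77 and 16.2 FPKM against 27.2, 27.5 and 23.6 FPKM (log2 change 1.12, SE 0.21), though 26.3% of its exonic bases lie in Bud23 on the opposite strand. Dnajc28, at most 0.631 FPKM in the controls, was 2.83, 2.35 and 2.96 FPKM with sulfasalazine (log2 change 1.33, SE 0.15, or 2.32 with a pseudocount of 0.1 and 2.55 with voom). Of 12 other mitochondrial folding and protease genes, 2 were higher and 4 lower (16.7% and 33.3%, against 37.2% and 29.3% of all genes), with a median log2 change of -0.13 against 0.08. Lonp1, the matrix protease, had 260, 273 and 234 FPKM in control cells and 65.9, 62.2 and 63.0 FPKM with sulfasalazine, a wide gap (log2 change -1.98, SE 0.10). Clpp, Yme1l1 and Htra2, all proteases, were lower by 1.28, 1.13 and 0.47 on the log2 scale, while Hscb, of iron-sulfur cluster transfer, and Grpel1, the exchange factor of Hspa9, were higher by 1.30 and 0.47. Reads of genes encoded in the mitochondrial genome moved the other way, from 1.47% to 2.21% of reads in the controls to 3.72% to 3.80% with sulfasalazine. The part of that share in these nuclear genes' changes was not tested.

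Among the ER genes of the set, the most abundant, Hspa5, fell while 5 J-protein genes rose and 1 fell. Besides Hspa5, Dnajb9, encoding ERdj4, a J-protein that acts in ER-associated degradation and holds the stress sensor Ire1 in check, was lower. It had 56.1, 49.2 and 29.1 FPKM in control cells and 19.4, 14.5 and 15.5 FPKM with sulfasalazine. The groups did not overlap, with control replicate 3 the lowest control (log2 change -1.35, SE 0.24, limma adjusted p = 0.00143). Hsp90b1 (chromosome 10, 86690209 to 86705509) encodes Grp94, the Hsp90 of the ER, and had 280, 311 and 169 FPKM in control cells and 156, 127 and 211 FPKM with sulfasalazine. Replicate 3 of each group lay between the other libraries, so that the groups overlapped and the gene did not pass (log2 change -0.60, SE 0.26, limma adjusted p = 0.0673). Hsp90b1 was called lower without control replicate 3 (log2 change -0.87, limma adjusted p = 0.00438), without sulfasalazine replicate 3 (-0.80, 0.0343) and under median-of-ratios scaling (-0.73, 0.0246). In the authors' deposited table it is lower by a log2 change of -0.73, with an adjusted p of 0.00453. Hsp90b1 overlaps 1810014B01Rik on the opposite strand over 15.7% of its exonic bases.

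The ER J-proteins that rose sit in the ER membrane or lumen. Dnajc18 had 6.52, 6.82 and 9.76 FPKM in control cells and 27.8, 29.6 and 29.7 FPKM with sulfasalazine (log2 change 1.81, SE 0.17, limma adjusted p = 5.13e-05). Dnajc14 had 20.1, 18.1 and 21.8 FPKM against 52.6, 50.3 and 51.0 FPKM (log2 change 1.32, SE 0.12), with 19.9% of its exonic bases in Ormdl2 on the opposite strand. The remaining 3, named after their values were seen, were Dnajb11, encoding ERdj3, a soluble partner of Hspa5, Dnajc16 and Dnajb14, with log2 changes of 0.92, 0.83 and 0.51. None of the 5 had overlapping groups, but they were taken because they were called, and 71.4% of all tested genes did not overlap. Among 17 other ER folding genes, 11 were higher and 3 lower of 16 tested (68.8% and 18.8%, against 37.2% and 29.3% of all genes), with a median log2 change of 0.55 against 0.08. Sdf2 had 37.4, 35.0 and 39.3 FPKM in control cells and 97.3, 114 and 105 FPKM with sulfasalazine, and its stress-inducible relative Sdf2l1 had 17.8, 18.8 and 13.1 FPKM against 42.7, 41.8 and 48.0 FPKM. Both were separated (log2 changes 1.47, SE 0.11, and 1.38, SE 0.16). Pdia4, a protein disulfide isomerase, and Ero1lb, which oxidizes such isomerases, were higher by 1.30 and 0.76. Ero1l, the other oxidase, Manf, a cofactor of Hspa5, and Canx, the membrane lectin calnexin, fell by 1.10, 0.80 and 0.73 on the log2 scale. Serpinh1, the collagen chaperone Hsp47 that marks collagen-secreting cells, was listed at no more than 0.0672 FPKM in any library.

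**Figure D5:**
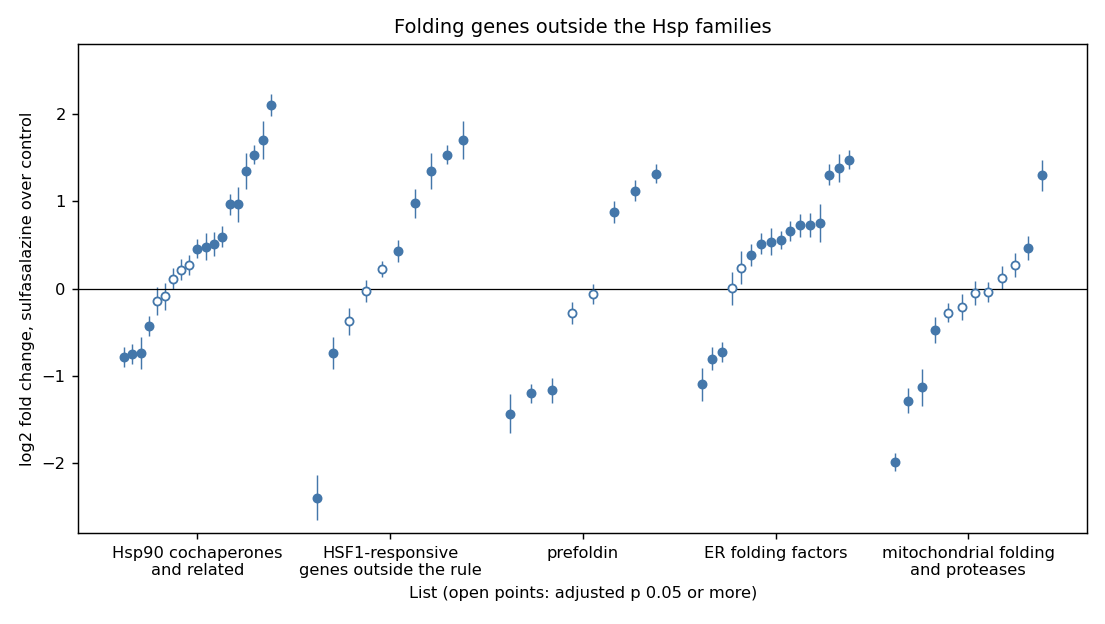
Log2 fold change (sulfasalazine over control, from log2(FPKM + 1)) of the tested genes on 5 lists of folding genes outside the heat shock families, with bars of 1 standard error and open points where the limma adjusted p was 0.05 or more. ER folding factors have 11 points above 0 that pass the test and 3 below, Hsp90 cochaperones 10 and 4, and mitochondrial genes 2 and 4.

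Promoter windows from RefSeq (GRCm38.p6, 250 bases before to 50 after a start) were found for 66 of the 85 genes, 85 windows in all. Those without an entry included Hspb2, Dnajc2, St13, Hspa13, Dnajc11, Hsp90ab1, Hspa9, Hsp90aa1, Dnajc12, Dnajc22, Dnajc5, Cct4, Dnajc30, Dnajc18, Hsf1, Bag4, Hsf4 and Hspa8. Both strands were searched for the ER stress element, CCAAT and CCACG with 9 bases between them, the pair of sites bound in genes of the unfolded protein response. It was present in 3 chaperone windows (3.53%), those of Hspa5, Hsp90b1 and Dnajc3, against 39 of 32851 windows overall (0.119%). The 250 bases before each start are shown because these genes carry the same element yet were not all called. Capitals mark the element, which Hsp90b1 holds once on each strand.
Hspa5 (chr2:34771840-34772089, forward strand): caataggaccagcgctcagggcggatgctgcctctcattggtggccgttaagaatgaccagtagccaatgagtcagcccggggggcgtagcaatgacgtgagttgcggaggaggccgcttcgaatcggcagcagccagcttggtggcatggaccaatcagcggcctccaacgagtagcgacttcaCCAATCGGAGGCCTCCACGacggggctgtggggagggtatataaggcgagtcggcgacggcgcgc
Hsp90b1 (chr10:86705445-86705694, reverse strand): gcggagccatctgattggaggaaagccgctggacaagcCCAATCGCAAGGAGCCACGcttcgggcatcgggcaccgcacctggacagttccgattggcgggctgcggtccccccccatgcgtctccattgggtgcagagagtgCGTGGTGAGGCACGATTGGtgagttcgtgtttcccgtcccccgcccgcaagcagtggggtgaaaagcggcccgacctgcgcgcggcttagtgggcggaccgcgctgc
Dnajc3 (chr14:118937682-118937931, forward strand): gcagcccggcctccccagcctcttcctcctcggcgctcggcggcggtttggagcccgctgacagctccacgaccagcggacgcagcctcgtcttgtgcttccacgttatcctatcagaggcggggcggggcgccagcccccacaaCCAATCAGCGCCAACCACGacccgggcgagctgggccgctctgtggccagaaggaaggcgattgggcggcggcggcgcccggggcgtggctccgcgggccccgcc

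Of these, Hspa5 was called lower and Hsp90b1 was not called, as given above. Dnajc3, encoding p58, an inhibitor of the stress kinase Perk and a partner of Hspa5, was not called either, at 11.0, 11.4 and 7.08 FPKM in control cells and 7.04, 7.45 and 10.0 FPKM with sulfasalazine. Its groups overlapped, with replicate 3 of each group on the far side of its other replicates (limma adjusted p = 0.376). Of the 12 tested genes of the whole table with the element, 4 were higher and 5 lower, against 3109 and 2419 of 8317 without it. Calr and Canx, lectin chaperone genes among the 12 that are named for the element, moved apart, Calr from 819, 718 and 637 FPKM to 1170, 1154 and 1266 FPKM and Canx from 361, 329 and 290 FPKM to 211, 185 and 194 FPKM.

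Of the heat shock factors, Hsf1 was called and its change was small. Hsf1 had 56.7, 54.9 and 64.6 FPKM in control cells and 72.7, 73.6 and 72.7 FPKM with sulfasalazine. The treated values were all above the controls by a small margin (log2 change 0.31, SE 0.10, limma adjusted p = 0.0275), and dropping any single library except control replicate 3 ended the call, with adjusted p-values from 0.0608 to 0.0979, and it ended under median-of-ratios scaling as well (log2 change 0.19, adjusted p = 0.183). Hsf2 overlapped between groups, at 7.21 to 9.87 FPKM in control cells and 5.55 to 8.20 FPKM with sulfasalazine (limma adjusted p = 0.253). Hsf4, best known from the lens, was below the filter, at 0.0405 to 0.125 FPKM in control cells and 0.357 to 0.370 FPKM with sulfasalazine, and it was called higher without the filter.

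A list of 11 genes outside the name rule that are known to respond to Hsf1 had 5 higher and 2 lower of 10 tested (50% and 20%, against 37.2% and 29.3% of all genes), with a median log2 change of 0.33 against 0.08. It shares Fkbp4, Ahsa1, Fkbp5 and Chordc1 with the Hsp90 list above, and Fkbp4, Ahsa1 and Fkbp5 are among its 5 higher genes. Like that list, it was chosen with earlier results known. Cryab, a small heat shock protein and lens crystallin, had 12.8, 9.36 and 12.3 FPKM in control cells and 26.4, 20.8 and 23.2 FPKM with sulfasalazine (log2 change 0.98, SE 0.17). Zfand2a, an arsenite- and heat-inducible gene, had 295, 273 and 144 FPKM against 42.3, 48.9 and 36.8 FPKM (log2 change -2.39, SE 0.26). The groups were apart for both, in opposite directions.

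The heat shock element of 3 units was found in the windows of 4 of the 66 genes, Dnajb6, Hspd1, Hspe1 and Hsph1 (7.06% of chaperone windows, against 0.603% of all). Here and for the ER stress element, only exact matches inside the windows were counted. A gene without a match can therefore still hold an imperfect or more distant element. Of the 4, Hsph1 was called higher, Hspd1 lower, and the others were not called. Across the table, 16 of 45 tested genes with the element were higher and 12 lower, against 3097 and 2412 of 8284 without it. The shorter element of 2 units, GAA and TTC in either order with 2 bases between them, which lies within the longer one, was in 22.4% of chaperone windows and 15.1% of all. Of 16 tested chaperone genes with it, 6 were higher and 3 lower, beside 409 and 338 of the 1112 tested genes of the whole table with it. It is shown for Hspa1b and Hsph1, 2 stress-inducible genes among the 6 that rose, in capitals within the 250 bases before the start. The 3 that fell were Cct6a, Hspb8 and Hspd1. The element of 3 units in Hsph1 lies after the start, outside the bases shown. The windows of Hspa1b and Hspa1a were identical at 296 of 300 positions.
Hspa1b (chr17:34959239-34959488, reverse strand): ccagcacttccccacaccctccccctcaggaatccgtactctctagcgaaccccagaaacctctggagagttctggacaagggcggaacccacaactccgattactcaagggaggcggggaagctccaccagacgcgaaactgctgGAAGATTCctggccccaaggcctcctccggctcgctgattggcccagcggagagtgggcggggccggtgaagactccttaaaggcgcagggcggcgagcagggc
Hsph1 (chr5:149636337-149636586, reverse strand): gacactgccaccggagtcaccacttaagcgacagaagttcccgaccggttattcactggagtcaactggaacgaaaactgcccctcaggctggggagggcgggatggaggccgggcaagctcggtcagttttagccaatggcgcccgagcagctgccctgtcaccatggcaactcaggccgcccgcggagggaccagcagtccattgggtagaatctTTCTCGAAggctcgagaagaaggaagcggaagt

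Small heat shock proteins hold unfolding clients without ATP. Hspb8, the partner of Bag3, was low and fell, from 4.28, 4.72 and 4.52 FPKM to 2.36, 2.21 and 2.69 FPKM (log2 change -0.69, SE 0.14, limma adjusted p = 0.00275), while Bag3 rose. Hspb6 had 8.17, 8.38 and 17 FPKM in control cells and 8.69, 8.55 and 16.8 FPKM with sulfasalazine. Replicate 3 was about as high in both groups, which overlapped fully (limma adjusted p = 0.939). Hspb11 also overlapped, at 11.2 to 18.5 FPKM in control cells and 12.8 to 14.5 FPKM with sulfasalazine (limma adjusted p = 0.792), and Hspb2 was listed at up to 0.276 FPKM.

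Outside these classes, Hspbap1, named after its values were seen, was lower (8.70, 6.88 and 8.62 FPKM against 4.0, 3.38 and 3.11 FPKM, log2 change -1.01, SE 0.16), and Hspbp1 was not called. The median GC content of the longest transcript was 50.7% for those that rose and 45.8% for those that fell, against 52.3% and 47.6% over all genes, and the median length was 2996 and 3165 bases against 3156 and 3506 bases. In the authors' deposited table, 20 of the 77 are higher and 25 lower at an adjusted p under 0.05. There 55% of all 14003 genes pass, a share that includes the low genes not tested here. Of the chaperone genes that pass there, 44 were called in the same direction here. Hsp90b1 was called in the authors' deposited table alone, and Hsf1, Bag6, Dnajc4, Stip1 and Tcp1 here alone.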

How the data were processed

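Values of 3 untreated and 3 sulfasalazine samples were used. Per the file headers, the authors deposited FPKM per library for 14003 genes, a library-size-adjusted signal, a log2 fold change and p-values. The submitters' processing notes name HTSeq 0.13.5, HISAT2 2.2.1, fastp 0.23.0, edgeR and mm39, with no roles. However, 83 of the 85 chaperone genes have the start and end of GENCODE release M21, so coordinates are given as GRCm38. Strand use in the counting was not stated in the labels.

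Whole reads were recovered from the FPKM (100.0% of values whole within 0.0001 reads), which gave the depths. Genes reaching 1 FPKM in 3 or more of 6 libraries were tested with limma 3.58.1 in R 4.3.3 (lmFit, eBayes with trend, two-sided) on log2(FPKM + 1), a scale that understates changes of low genes, with Benjamini-Hochberg adjustment over 10338 genes. SE is the model's standard error, with n = 3 per group. The script was tested on simulated data. The members, classes, sites and lists were chosen with earlier results of these data known. Named were all tested Hsp70, Hsp110, Hsp90, Hsp60, Hsp10, Hop, Hip and Hsf genes, and of other classes up to 6 called genes per direction by size of change and the 3 highest by mean. Of each other list, up to 4 called genes per direction were named. Genes named for a promoter element or for another reason are given as such. A gene of the set is not reported here. Shared sequence was computed as 50-base words of GENCODE M21 transcripts, and overlap from its exons. Settings varied were the pseudocount (0.1), the filter (none, or 5 FPKM), the scaling (median of ratios, quantile), the eBayes trend, a replicate block and each library left out. Added after seeing the data were voom on recovered reads and both replicates 3 left out.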

Additional observations from a re-analysis of the deposited data

How the results depend on the processing

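The tally of 25 chaperone genes higher and 24 lower ranged from 22 to 28 and from 20 to 26 when single libraries were left out. It was 29 and 28 without replicate 3 of both groups, and voom on recovered reads called the same 25 and 24 genes. For all genes the leave-one-out range was 3387 to 4206 higher and 2454 to 3527 lower. Median-of-ratios scaling moved the median log2 fold change of all genes by -0.12 and quantile normalization by -0.11, which gave 21 higher and 25 lower, and 28 higher and 26 lower, among the chaperone genes. Under them 3422 genes were higher and 3533 lower, and 3507 and 3549. The count of ER genes lower was 2, ranged from 2 to 4 when a library was left out and was 5 without replicate 3 of both groups. The count of mitochondrial genes higher was 2 and became 1 under the filter of 5 FPKM, which removes Dnajc28. Among the genes of the set named by class and size of change, none that was called changed direction.

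Among the genes of the set named by class and size of change, signs changed for 4 that were not called. The other uncalled genes were not checked for this. Hspb6 was at -0.0861 (log2 fold change) under median-of-ratios scaling, -0.143 under quantile normalization and -0.265 to 0.349 with single libraries left out. Hspa14 was at -0.0240 under median-of-ratios scaling. Hspa13 was at -0.0564 under quantile normalization, -0.106 to 0.311 with single libraries left out and -0.343 without replicate 3 of both groups. Hspb11 was at -0.209 to 0.131 with single libraries left out and 0.0726 without replicate 3 of both groups. The causes were not tested. Quantile normalization also called Hspe1 and St13 higher (adjusted p = 0.0303 and 0.0245) and Hsf2 lower (0.0224), and without replicate 3 of both groups St13 and Hsf2 passed in the same directions (0.0444 and 0.0298).

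The labels share replicate numbers between groups, but same-numbered samples did not deviate together (correlations of 0.04, -0.19 and -0.17). With the replicate number as a block, 23 chaperone genes were higher and 22 lower, and 3649 and 2771 of all genes. The block ended the calls of Dnajb5, Dnajc11, Hsf1 and Tcp1. The 8 genes below the filter rest on few reads in the controls, such as Hspa1a with 0 to 5 reads in a control. Hspa1a also shares 66.3% of its 50-base words with other genes, above all Hspa1b.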
